A study of Arabidopsis thaliana with 36 samples.

Results

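The genes described here encode the monomeric, or minor, light-harvesting antenna of photosystem II, together with PSBS and the rarely expressed antenna relative LHCB7. They are 7 genes of 33279 in the table: LHCB4.1 (AT5G01530), LHCB4.2 (AT3G08940), LHCB4.3 (AT2G40100), LHCB5 (AT4G10340), LHCB6 (AT1G15820), LHCB7 (AT1G76570) and PSBS (AT1G44575). They were taken from the table by gene identifier, with no measured value in the rule, although results of these data were known when the set was drawn up. All 7 passed the filter of 1 FPKM or more in at least 3 libraries that 18729 genes passed. Transcript levels were measured by sequencing of polyadenylated RNA from rosette leaves 3 and 4 of Arabidopsis thaliana Col-0, the common wild-type laboratory strain, with no treatment and no transgene in any group. The sample labels give both leaves, whereas the series text gives the third leaf alone. Leaves were taken at 21 or 35 days after sowing (DAS), and at each age at ZT1, ZT5, ZT9, ZT13, ZT17 and ZT21, where ZT counts hours from lights on. All plants grew at 22 °C with 16 h of light at 100 µmol m−2 s−1 and 8 h of dark, so ZT17 and ZT21 were night samples. There are 12 groups of 3 libraries, which the series text calls biological replicates and the sample titles number as batches. By its title, the series asks whether ageing shifts daily expression to a night-like state, and the comparisons between ages bear on that question.

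In photosystem II, the trimeric major antenna collects most of the light, and the monomeric proteins CP29 (LHCB4), CP26 (LHCB5) and CP24 (LHCB6) sit between the trimers and the reaction-centre core. CP29 and CP24 hold the moderately bound trimer in place. PSBS binds little or no pigment of its own. It senses acidification of the thylakoid lumen in excess light and is required for the fast, energy-dependent part of non-photochemical quenching, by which absorbed light is lost as heat. Nuclear antenna genes are known for strong daily rhythms with a daytime peak and for loss of transcript as leaves age.

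FPKM is fragments scaled to transcript length and library total, so levels of different genes can be compared. It summed to between 829518 and 952310 per library, and 16113 to 17131 genes reached 1 FPKM. The depth is not stated. If the smallest step between low FPKM values is 1 fragment, it ran from 7100000 to 16900000 fragments, with a median of 9420000. In replicate 1 of 21 DAS ZT1 and replicate 3 of 21 DAS ZT21 that step rests on 1 value, so their depth is uncertain. The lowest fragment count of LHCB4.3 or LHCB7 in any library was then about 103. That count carries a counting error of about 9.84% for LHCB7 and 9.87% for LHCB4.3, against 1.37% for the smallest value of LHCB4.1. In 4 libraries, 1 locus, AT2G01021, took 27856 to 74542.5 FPKM; they are replicate 1 of 21 DAS ZT17, replicate 2 of 35 DAS ZT13, and replicate 3 of 35 DAS ZT17 and of 35 DAS ZT21. Leaf mesophyll markers were the most abundant cell-type markers at both ages. Their summed levels were 23434 to 55150 FPKM at 21 DAS and 4484 to 25663 FPKM at 35 DAS. Guard cell markers summed to 65.5 to 157 FPKM at 21 DAS and 27.5 to 82.9 at 35 DAS, and epidermis markers to 526 to 996 and 78.7 to 270, with PDF1 under 0.1 at 35 DAS. Phloem markers summed to 400 to 1150 FPKM and 408 to 1285, and xylem markers to 22.0 to 45.2 and 0.469 to 15.3. Flower markers stayed at or below 2.07 FPKM in sum. Averaged over times, 5 of 5 mesophyll, 4 of 4 guard cell and 4 of 4 xylem markers were lower with age (limma, adjusted p under 0.05). So were 3 of 4 tested epidermis markers and the 1 tested flower marker, while 2 of 4 phloem markers were lower and 2 higher. Of all genes tested, 23.2% were lower and 64.5% higher. The part of cell makeup in the results below was not tested, and in these bulk samples fewer cells of a type and less RNA per cell cannot be told apart.

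The 7 genes lie apart from each other on 5 chromosomes. In the deposited TAIR10 coordinates, LHCB4.1 lies at chr5:208937-210445, LHCB4.2 at chr3:2717675-2718883, LHCB4.3 at chr2:16745653-16747400, LHCB5 at chr4:6408016-6409677, LHCB7 at chr1:28729132-28730825 and PSBS at chr1:16871696-16873383, all on the plus strand. LHCB6 lies on the minus strand at chr1:5446462-5447859. The 3 LHCB4 genes are paralogs. Over the aligned coding bases, LHCB4.1 and LHCB4.2 were 81.9% identical, LHCB4.1 and LHCB4.3 71.8%, and LHCB4.2 and LHCB4.3 72.8%. The longest stretch shared by any pair of LHCB4 coding sequences was 23 bases. The longest coding models of RefSeq give 290 residues for LHCB4.1, 287 for LHCB4.2 and 276 for LHCB4.3. They give 280 for LHCB5, 258 for LHCB6, 327 for LHCB7 and 265 for PSBS. LHCB6 overlaps AT1G15810 on the other strand by 103 bases, and LHCB4.2 overlaps AT3G08943 by 4 bases. These partners reached at most 20.9 and 19.7 FPKM, and whether counting used the strand is not given in the sources used here.

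Because LHCB4.1, LHCB4.2, LHCB5 and LHCB6 had the same daily course, and LHCB7 another one, the stretches upstream of these 5 genes were set side by side. Searched were the 300 bases before the TAIR10 start of the most abundant transcript of each gene. On both strands, matches were sought to the evening element AAAATATCT, the CCA1-binding site AAAAATCT, the G-box CACGTG, the I-box GATAAG and the sequence CCAATC. Printed is the longest stretch of each window outside every RefSeq exon, those of neighbouring genes included, read 5′ to 3′ on the strand of the gene from the RefSeq genome of build TAIR10.1, with matches in capitals (GATTGG is CCAATC on the other strand). They lie at chr5:208637-208865 (plus strand), chr3:2717375-2717556 (plus), chr4:6407960-6408006 (plus), chr1:5447881-5448059 (minus) and chr1:28728977-28728997 (plus).
LHCB4.1: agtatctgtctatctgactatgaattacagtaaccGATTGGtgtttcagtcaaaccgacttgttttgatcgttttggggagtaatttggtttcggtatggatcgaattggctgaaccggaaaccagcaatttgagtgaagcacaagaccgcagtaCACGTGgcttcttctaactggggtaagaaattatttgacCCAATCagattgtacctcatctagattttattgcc
LHCB4.2: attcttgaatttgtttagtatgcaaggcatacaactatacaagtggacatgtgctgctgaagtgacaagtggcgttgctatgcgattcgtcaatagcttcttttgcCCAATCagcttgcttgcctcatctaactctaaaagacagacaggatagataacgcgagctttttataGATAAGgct
LHCB5: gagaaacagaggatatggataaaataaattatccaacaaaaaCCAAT
LHCB6: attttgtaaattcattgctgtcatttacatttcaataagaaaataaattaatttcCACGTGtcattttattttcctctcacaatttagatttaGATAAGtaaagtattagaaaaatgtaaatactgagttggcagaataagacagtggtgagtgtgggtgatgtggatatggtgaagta
LHCB7: taCACGTGgccagatccataa
The G-box, which bZIP and bHLH factors bind, was found in the windows of LHCB4.1, LHCB6 and LHCB7. Before the TAIR10 start it lay at 145 to 140 bases in both LHCB4.1 and LHCB6, and at 153 to 148 bases in LHCB7. It was also found in 9.91% of the 18728 windows of all tested genes that could be read. RefSeq starts LHCB4.1 at chr5:208866, LHCB6 at chr1:5447880 and LHCB7 at chr1:28728998. From those starts the distances are shorter, and those of LHCB4.1 and LHCB6 are not equal. The I-box was found in LHCB4.1, LHCB4.2, LHCB4.3 and LHCB6 and in 15.5% of all windows. CCAATC was found in LHCB4.1, LHCB4.2, LHCB4.3 and LHCB5 and in 13.7% of all windows. The evening element and the CCA1-binding site, found in 3.07% and 7.98% of all windows, were in none of the 7. No motif was found in the window of PSBS, which lies wholly inside the RefSeq gene and so is not upstream of it by that annotation. For LHCB4.3 the transcript start used was chr2:16745803, inside the locus given above. Its I-box at 42 to 37 bases and its CCAATC at 65 to 60 bases lie inside that locus and not upstream of it. Matches in bases that RefSeq places in an exon are not printed, and the CCAATC of LHCB5 is cut there before its last base. LHCB5 held neither G-box nor I-box.

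The antenna genes and PSBS fell with age, and LHCB7 did not. Averaged over the 6 times and measured as 35 minus 21 DAS on the log2(FPKM + 1) scale, 6 of the 7 genes were lower and 1 was higher (limma, Benjamini-Hochberg adjusted p under 0.05). Of all 18729 genes tested, 23.2% were called lower and 64.5% higher. The median difference was −1.43 over the 7 genes and 0.39 over all genes. LHCB6 fell most, by 1.96 ± 0.11 (SE), followed by LHCB5 with a fall by 1.57 ± 0.09. LHCB4.3 fell by 1.47 ± 0.18, LHCB4.1 fell by 1.43 ± 0.07 and LHCB4.2 fell by 1.37 ± 0.11. PSBS fell by 1.23 ± 0.09. The largest adjusted p of these 6 was 1.38e-08, for LHCB4.3. LHCB7 rose by 0.34 ± 0.06 (adjusted p = 7.19e-06), which is less than the median of all genes. After the libraries were rescaled by median-of-ratios size factors, which brought the median of all genes to 0.04, LHCB7 was at −0.06 (adjusted p = 0.399) and the other 6 were still called lower, between −1.65 for PSBS and −2.38 for LHCB6. Of all genes, 7198 were then lower and 7957 higher, against 4349 and 12084 as deposited. Within each batch number of the titles, the mean difference was between −1.41 and −1.44 for LHCB4.1 and between −1.90 and −2.08 for LHCB6. LHCB4.2 lay between −1.31 and −1.44, LHCB4.3 between −1.15 and −1.78, LHCB5 between −1.53 and −1.61 and PSBS between −1.14 and −1.36. LHCB7 lay between 0.18 and 0.56.

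The order of levels was nearly the same at both ages. At 21 DAS, LHCB5 was highest with a mean of 5631 FPKM over the day (SD over the 18 libraries 3221), then LHCB4.1 at 3605 (1444), LHCB6 at 2553 (1991), PSBS at 2287 (758), LHCB4.2 at 1969 (1563), LHCB4.3 at 143 (82.0) and LHCB7 at 18 (8.13). At 35 DAS, the order was LHCB5 at 2415 FPKM (2337), LHCB4.1 at 1456 (836), PSBS at 1024 (491), LHCB4.2 at 938 (1124), LHCB6 at 910 (1054), LHCB4.3 at 56.3 (45.0) and LHCB7 at 24.8 (17.0). The SDs include the swing over the day. LHCB5 was above LHCB4.1 in 18 of 18 libraries at 21 DAS and in 14 of 18 at 35 DAS. PSBS and its neighbours changed places within the day: LHCB6 was above PSBS in 6 of 18 libraries at 21 DAS, and LHCB4.1 was above PSBS in 9 of 18 at 35 DAS. LHCB4.3 was above LHCB7 in 18 of 18 libraries and in 13 of 18. LHCB6 moved from the third place to the fifth.

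**Figure D1:**
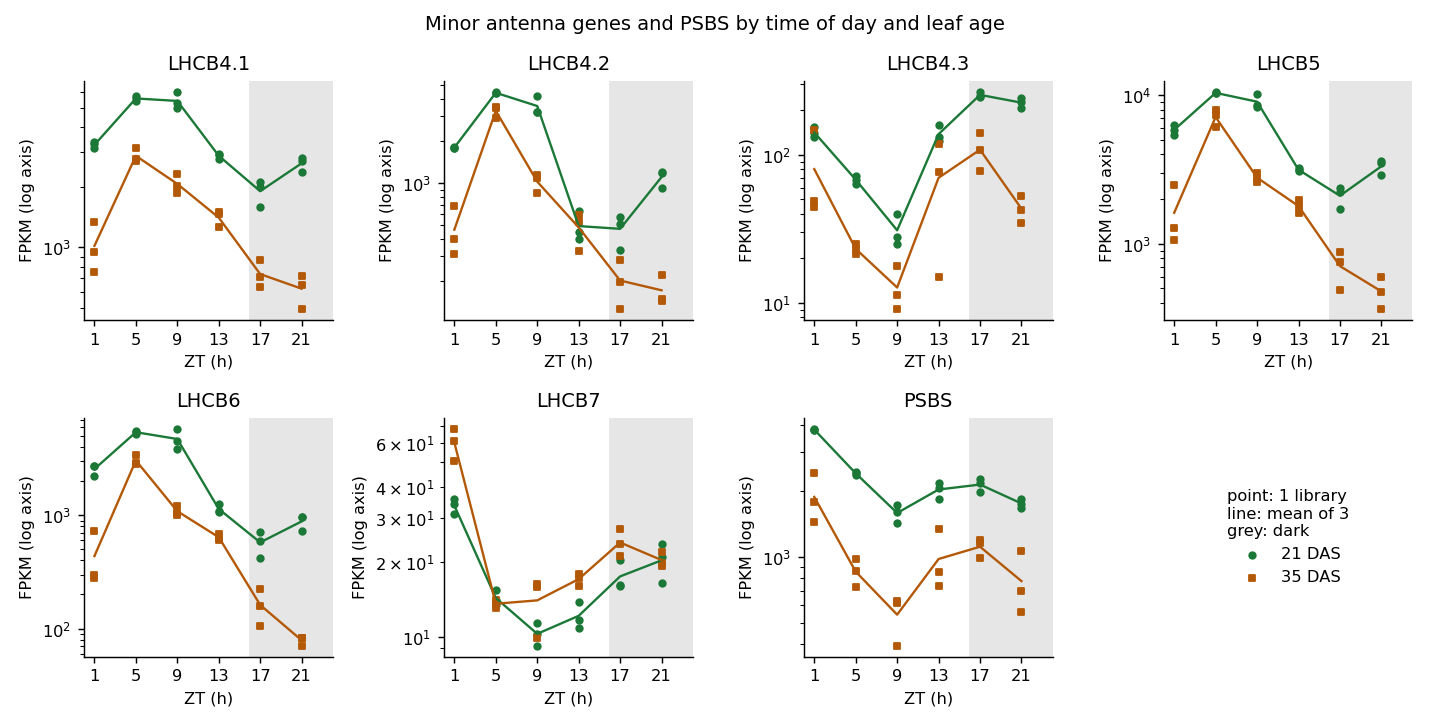
FPKM of each gene (log axis) against time of day in h from lights on, with 1 point per library, lines through the means of 3 libraries, green circles for 21 DAS, brown squares for 35 DAS and grey for the dark. LHCB4.1, LHCB4.2, LHCB5 and LHCB6 are highest at ZT5 and fall on to ZT21 at 35 DAS, LHCB4.3 is highest at ZT17, and LHCB7 and PSBS are highest at ZT1.

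The size of the fall varied between the measured hours. Tests of such a change, given below with their limits, passed for LHCB4.1, LHCB4.2, LHCB5 and LHCB6, and not for LHCB4.3, LHCB7 or PSBS. At ZT1, ZT9 and ZT17, 6 of the 7 genes were lower and LHCB7 was higher. At ZT5, 5 were lower and none was higher, at ZT13, 5 were lower and 1 was higher, and at ZT21, 6 were lower and none was higher. The share of all tested genes called lower was smallest at ZT5 (15.2%) and largest at ZT17 (18.5%), with 17.3% at ZT1, 17.7% at ZT9, 18.4% at ZT21 and 18% at ZT13. The share called higher was smallest at ZT13 (39.7%) and largest at ZT1 (53.2%), with 53% at ZT21, 52.2% at ZT9, 48.3% at ZT5 and 46% at ZT17. After median-of-ratios rescaling, 4490 to 5497 of all genes were higher at a single time, and 4992 to 5764 were lower at each time except ZT13. LHCB4.1, LHCB4.2, LHCB4.3, LHCB5 and LHCB6 had their greatest difference at ZT21. LHCB4.1, LHCB4.2, LHCB5 and LHCB6 had their smallest at ZT5 or ZT13. The 3 libraries of 35 DAS lay below all 3 of 21 DAS at every time for LHCB4.1, LHCB5, LHCB6 and PSBS, at every time but ZT13 for LHCB4.2 and at every time but ZT1 for LHCB4.3. The share of all genes that separated in this way was not computed.

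**Figure D2:**
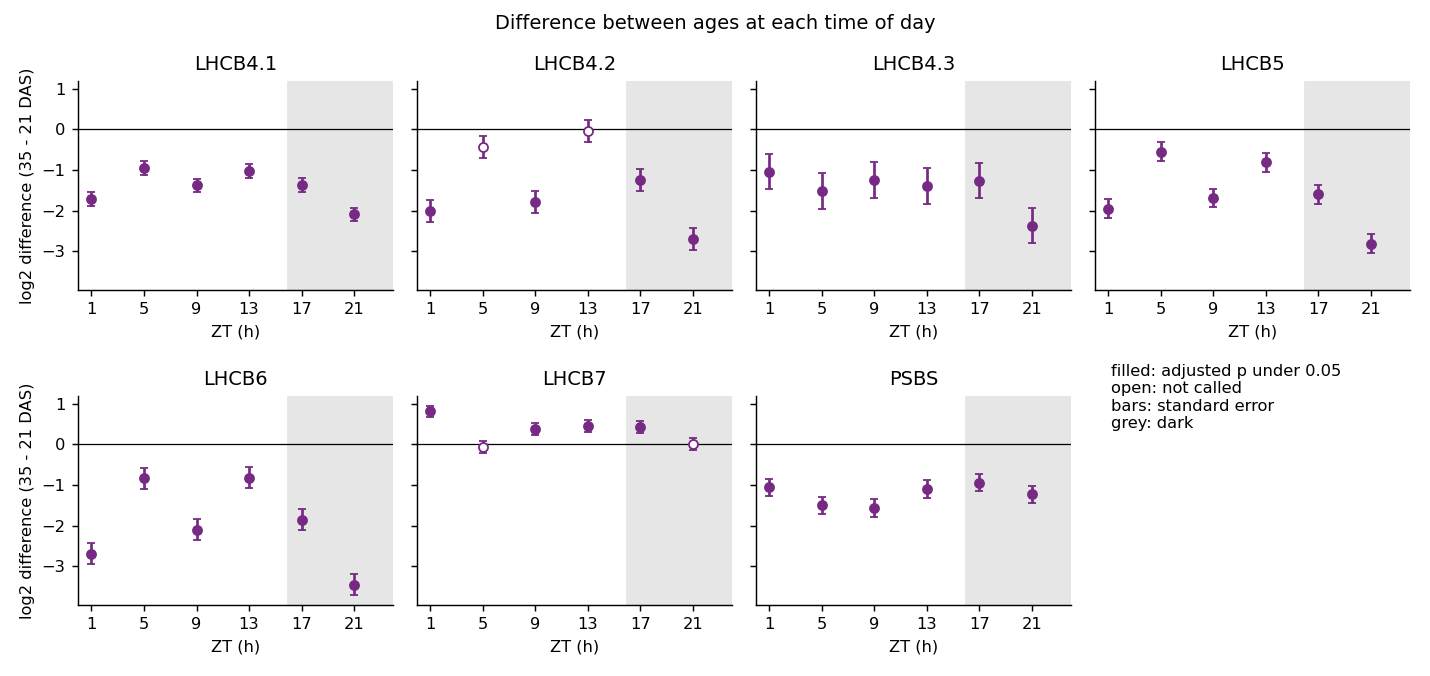
Difference between ages (35 minus 21 DAS, log2(FPKM + 1) scale) at each time of day for each gene, with the standard error from limma; filled points have an adjusted p under 0.05 and open points do not. LHCB6 runs from −0.83 at ZT5 and ZT13 to −3.46 at ZT21, PSBS stays between −0.94 and −1.57, and LHCB7 lies at or above −0.07.

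LHCB4.1 and LHCB4.2 encode the CP29 forms of most leaves. LHCB4.1 had 5690, 5558 and 5422 FPKM at ZT5 and 2390, 2812 and 2700 FPKM at ZT21 in the 3 libraries of 21 DAS. At 35 DAS it had 3151, 2765 and 2695 FPKM at ZT5 and 491, 723 and 652 FPKM at ZT21. All libraries of 35 DAS were low at both times, and at ZT21 the mean was 0.236 times that of 21 DAS. The difference was −0.96 ± 0.17 at ZT5 (adjusted p = 2.07e-05) and −2.10 ± 0.17 at ZT21 (adjusted p = 6.45e-11). It was −1.72 at ZT1, −1.38 at ZT9, −1.03 at ZT13 and −1.38 at ZT17, all called.

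LHCB4.2 had its smallest differences between ages at ZT5 and ZT13. At ZT5 it had 4468, 4356 and 4390 FPKM at 21 DAS and 3512, 3418 and 2900 FPKM at 35 DAS. These libraries did not overlap, but the difference of −0.43 ± 0.27 did not pass (adjusted p = 0.166), and rescaling moved it to −0.85 with a call (adjusted p = 0.0132). At ZT13 it had 631, 399 and 452 FPKM at 21 DAS and 328, 591 and 532 FPKM at 35 DAS. The ages overlapped there, with a difference of −0.05 ± 0.27 (adjusted p = 0.89). At ZT21 it had 919, 1190 and 1204 FPKM at 21 DAS and 145, 149 and 223 FPKM at 35 DAS, a difference of −2.69 ± 0.27 (adjusted p = 3.16e-09). At ZT1, ZT9 and ZT17 the difference was −2.02, −1.79 and −1.26, all called. The call at ZT17 was lost without replicate 2 of every group (−0.80, adjusted p = 0.0655).

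LHCB4.3, also called LHCB8, is the CP29 form that in Arabidopsis is known to gain in strong light. It ran opposite to the other LHCB4 genes through the day. At ZT9 it had 25.1, 27.8 and 39.9 FPKM at 21 DAS and 9.05, 11.2 and 17.8 FPKM at 35 DAS, the lowest time at both ages. At ZT17 it had 252, 246 and 267 FPKM at 21 DAS and 77.6, 108 and 140 FPKM at 35 DAS, the highest time at both ages. At ZT21 it had 208, 242 and 227 FPKM at 21 DAS and 34.8, 52.7 and 42.4 FPKM at 35 DAS. That is a difference of −2.37 ± 0.44 (adjusted p = 2.98e-05), and at ZT5, ZT9 and ZT17 it was −1.52, −1.24 and −1.26, all called. Libraries of 35 DAS were uneven for this gene at ZT1 and ZT13. At ZT1 they had 44.3, 48.5 and 148 FPKM, against 153, 140 and 132 FPKM at 21 DAS, and the third overlapped the younger leaves. The difference there was −1.04 ± 0.44 (adjusted p = 0.0364), and it was −0.68 without replicate 1 of every group (adjusted p = 0.29). At ZT13 they had 118, 14.9 and 76.8 FPKM, against 123, 132 and 159 FPKM at 21 DAS. The difference of −1.39 ± 0.44 (adjusted p = 0.00851) was −0.52 without the second library, which is 1 of those high in AT2G01021 (adjusted p = 0.18). The call at ZT1 was also lost with no filter on low values (adjusted p = 0.0512), without replicate 2 of every group and without any library of ZT1 but replicate 3 of 35 DAS (adjusted p up to 0.183). The call at ZT9 was lost without replicate 3 of 21 DAS or replicate 1 of 35 DAS (adjusted p = 0.0638 and 0.0642) and without replicate 1 or 3 of every group (adjusted p = 0.069 and 0.0544). The call at ZT17 was lost without replicate 1 of 35 DAS (adjusted p = 0.0658) or of every group (adjusted p = 0.103).

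The mix of the LHCB4 genes changed through the day, and its means over the day were close at the 2 ages. LHCB4.2 made up 43.9% ± 0.428 (SD, n = 3) of the summed LHCB4 level at ZT5 and 14% ± 2.77 at ZT13 in leaves of 21 DAS, and 53.1% ± 1.80 and 24.6% ± 6.75 in leaves of 35 DAS. At the other times the order could turn, with 34.5% ± 0.736 at 21 DAS and 29.4% ± 1.79 at 35 DAS at ZT1, 39.4% ± 1.48 and 32.8% ± 1.85 at ZT9, and 27.8% ± 1.53 and 20.7% ± 4.18 at ZT21. The ratio of LHCB4.2 to LHCB4.1 was lower in all older libraries at 3 times and higher in all of them at 2. At ZT5 of 35 DAS, LHCB4.2 passed LHCB4.1, with 1.14 ± 0.0836 times its FPKM. LHCB4.3 made up 0.341% ± 0.0477 at ZT9 and 9.82% ± 1.64 at ZT17 at 21 DAS, and 0.421% ± 0.201 and 10.7% ± 3.79 at 35 DAS. Its share over all times was 3.87% ± 3.38 (SD, n = 18) at 21 DAS and 4.17% ± 3.98 at 35 DAS. The log2 ratio of LHCB4.2 to LHCB4.1 differed between ages by 0.05 and that of LHCB4.3 to LHCB4.1 by −0.04. Neither passed a two-sided permutation test of ages within times with 100000 permutations, adjusted over the 6 ratios tested (adjusted p = 0.82 and 0.828).

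**Figure D3:**
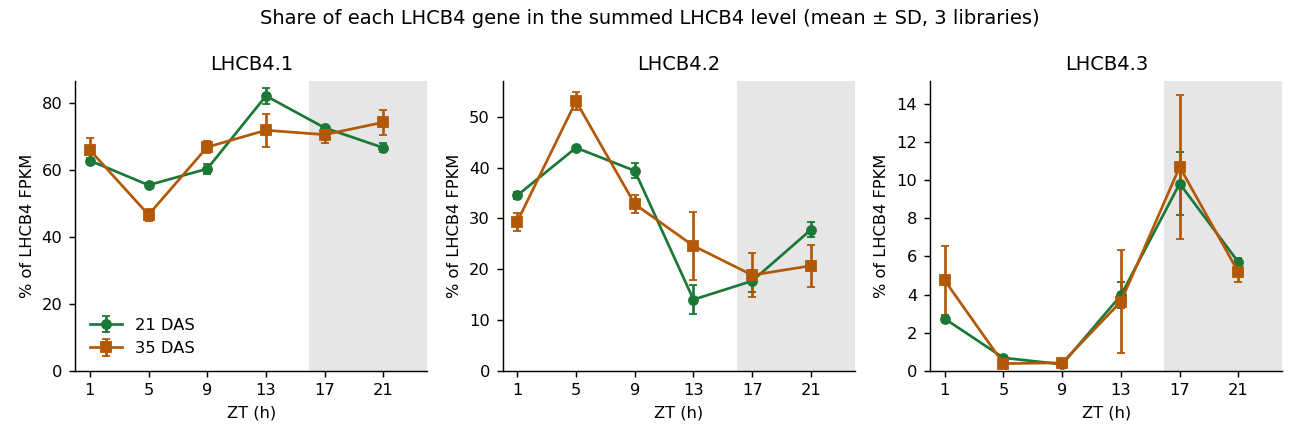
Share of each LHCB4 gene in the summed LHCB4 FPKM (%) against time of day in h, mean ± SD of 3 libraries, green for 21 DAS and brown for 35 DAS, grey for the dark. LHCB4.2 runs from 14% at ZT13 to 43.9% at ZT5 at 21 DAS, and LHCB4.3 rises from under 1% at ZT5 and ZT9 to 9.82% (21 DAS) and 10.7% (35 DAS) at ZT17.

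LHCB5 encodes CP26. It had 10509, 10276 and 10271 FPKM at ZT5 of 21 DAS and 7307, 7900 and 6140 FPKM at ZT5 of 35 DAS. The ages did not overlap at this time, but the difference of −0.55 ± 0.23 passed narrowly (adjusted p = 0.0371) and was lost without each of the replicate numbers (adjusted p = 0.0777 to 0.175) without any single library of ZT5 except replicate 2 of 35 DAS (adjusted p up to 0.133) and with no filter on low values (adjusted p = 0.0707). At ZT21 it had 2898, 3477 and 3577 FPKM at 21 DAS and 362, 600 and 471 FPKM at 35 DAS. All 3 libraries of 35 DAS were low there, at a mean 0.144 times that of 21 DAS, a difference of −2.82 ± 0.23 (adjusted p = 8.02e-11). At ZT1, ZT9, ZT13 and ZT17 the difference was −1.95, −1.69, −0.82 and −1.60, all called.

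LHCB6 encodes CP24 and differed most between ages at ZT21. It had 723, 961 and 969 FPKM at ZT21 of 21 DAS and 70.2, 82.9 and 83.3 FPKM at ZT21 of 35 DAS. The older leaves held 0.0891 times the level of the younger ones at this time, with a difference of −3.46 ± 0.26 (adjusted p = 2.42e-11). At ZT5 it had 5551, 5273 and 5458 FPKM at 21 DAS and 3397, 2927 and 2839 FPKM at 35 DAS, 0.563 times the younger level, with a difference of −0.83 ± 0.26 (adjusted p = 0.00667). At ZT1 it had 2733, 2236 and 2731 FPKM at 21 DAS and 277, 299 and 735 FPKM at 35 DAS. The third library of 35 DAS was higher than the other 2 there, as it was for LHCB4.1, LHCB4.2, LHCB4.3, LHCB5 and PSBS. The difference was −2.70 ± 0.26 at ZT1 (adjusted p = 8.51e-10), −2.10 at ZT9, −0.83 at ZT13 and −1.86 at ZT17, all called. At ZT13 the call was lost without replicate 1 of every group (−0.72, adjusted p = 0.0575).

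LHCB7 is a low-expressed relative of the antenna proteins in Arabidopsis, and its higher call depended on the scaling. At ZT1 it had 34.0, 31.1 and 35.7 FPKM at 21 DAS and 50.8, 68.4 and 61.1 FPKM at 35 DAS. All 3 older libraries were higher there, with a difference of 0.81 ± 0.15 (adjusted p = 2.06e-05). At ZT21 it had 16.5, 20.8 and 23.5 FPKM at 21 DAS and 19.2, 21.9 and 19.8 FPKM at 35 DAS, which overlapped, with a difference of 0.01 ± 0.15 (adjusted p = 0.934). At ZT5 the difference was −0.07 ± 0.15 (adjusted p = 0.691). At ZT9, ZT13 and ZT17 it was 0.39, 0.46 and 0.43, all called, and the ages overlapped at ZT9. After median-of-ratios rescaling, LHCB7 was at 0.28 at ZT1 (adjusted p = 0.131) and was called higher at no time. It was then called lower at ZT5 (−0.47, adjusted p = 0.0166) and at ZT21 (−0.44, adjusted p = 0.0202). The calls at ZT9, ZT13 and ZT17 were each lost without replicate 2 of every group, with 0.20, 0.36 and 0.29 (adjusted p = 0.377, 0.139 and 0.214). Those at ZT9 and ZT17 were also lost without replicate 3 of every group (adjusted p = 0.143 and 0.124). At ZT9 this held without replicate 2 of 21 DAS or replicate 2 or 3 of 35 DAS (adjusted p up to 0.136), and at ZT17 without replicate 2 or 3 of 21 DAS or replicate 2 of 35 DAS (adjusted p up to 0.0711).

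PSBS was lower at all 6 times, by 0.94 to 1.57 log2 units. At ZT1 it had 3850, 3790 and 3790 FPKM at 21 DAS and 1437, 1781 and 2414 FPKM at 35 DAS, the highest time at both ages, with a difference of −1.05 ± 0.21 (adjusted p = 8.26e-05). At ZT9, the lowest time at both ages, it had 1728, 1429 and 1601 FPKM at 21 DAS and 392, 627 and 615 FPKM at 35 DAS. The groups did not overlap, and the difference was −1.57 ± 0.21 (adjusted p = 3.37e-07). At ZT21 it had 1741, 1844 and 1675 FPKM at 21 DAS and 561, 1067 and 699 FPKM at 35 DAS, a difference of −1.23 ± 0.21 (adjusted p = 1.21e-05). It was −1.50 at ZT5, −1.10 at ZT13 and −0.94 at ZT17, all called.

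A 24-h cosine described 3 courses among the 7 genes. A call needed an adjusted p under 0.05 and an amplitude of 0.5 log2 units or more, so that peak and trough lay 1 unit or more apart. By this rule, 6 of 7 genes were rhythmic at 21 DAS and 6 of 7 at 35 DAS, against 26.8% and 17.3% of all genes tested. LHCB4.1, LHCB4.2, LHCB5 and LHCB6 peaked between ZT4.87 and ZT6.26 at 21 DAS and between ZT6.56 and ZT7.47 at 35 DAS. LHCB6 had an amplitude of 1.72 ± 0.213 (SD over 3 series, each the 6 libraries of 1 replicate number) at 21 DAS and 2.33 ± 0.142 at 35 DAS, a fitted peak-to-trough fold of 10.9 and 25.3. LHCB4.2 had 1.68 ± 0.110 and 1.94 ± 0.248, LHCB5 had 1.17 ± 0.115 and 1.71 ± 0.122, and LHCB4.1 had 0.76 ± 0.115 and 1.08 ± 0.0958. LHCB4.3 had its fitted peak in the dark, at ZT19.5 ± 0.388 and ZT19.2 ± 1.53, with an amplitude of 1.38 and 1.12. LHCB7 had its fitted peak at ZT23.0 ± 0.218 and ZT22.7 ± 0.285, although its highest measured time was ZT1, with an amplitude of 0.67 and 0.66. PSBS passed the F test at both ages (adjusted p = 0.0023 and 0.000622) but its amplitudes of 0.36 ± 0.0548 and 0.42 ± 0.206 missed the minimum. It reached the minimum at 21 DAS after rescaling, with 0.55, and at 35 DAS without replicate 1 of every group, with 0.54.

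**Figure D4:**
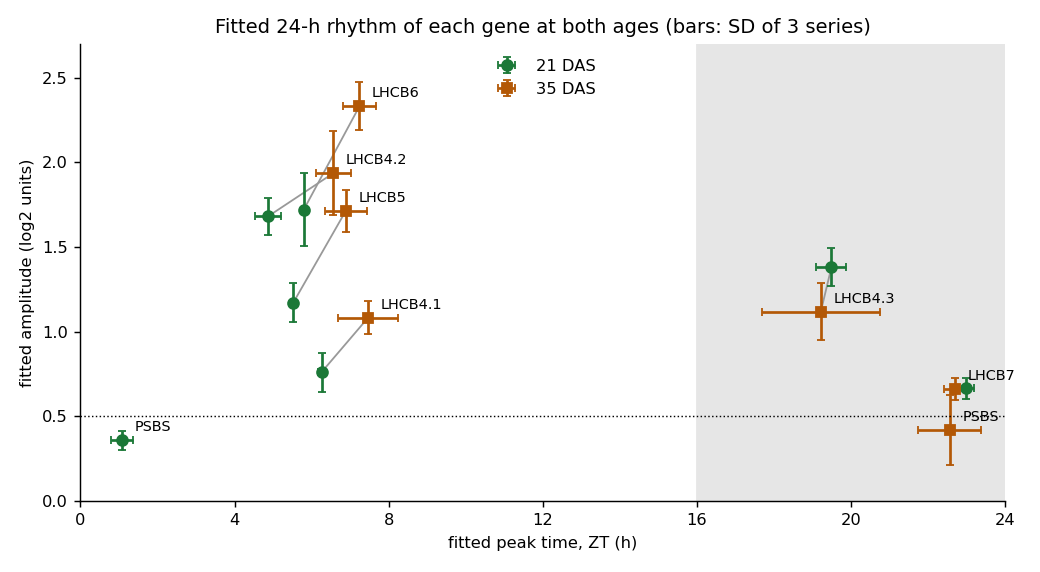
Fitted amplitude (log2 units) against fitted peak time (ZT, h) of each gene, green circles for 21 DAS and brown squares for 35 DAS, joined per gene except for PSBS, whose points lie on either side of lights on; bars are the SD of 3 series and the dotted line is the amplitude minimum of 0.5. The fitted peaks of LHCB4.1, LHCB4.2, LHCB5 and LHCB6 are later and their fitted amplitudes larger at 35 DAS, and neither change was tested on its own. LHCB4.3 and LHCB7 keep fitted peaks between ZT19 and ZT23.

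The rhythm itself differed between ages for LHCB4.1, LHCB4.2, LHCB5 and LHCB6, by an F test on the difference of the cosine and sine terms. These are 4 of 7 genes, against 27.1% of all genes tested. The difference had an amplitude of 0.97 for LHCB6 (adjusted p = 0.00012), 0.74 for LHCB5 (adjusted p = 0.000603), 0.83 for LHCB4.2 (adjusted p = 0.00106) and 0.43 for LHCB4.1 (adjusted p = 0.00526). Their fitted peaks were later at 35 DAS by 1.44, 1.36, 1.70 and 1.21 h. The shift of the peak and the change of amplitude were not tested on their own. The highest of the 6 measured times was ZT5 at both ages in all 4, and the lowest moved from ZT17 to ZT21. LHCB4.3, LHCB7 and PSBS did not pass, with 0.28 (adjusted p = 0.655), 0.05 (adjusted p = 0.893) and 0.26 (adjusted p = 0.232). The call of LHCB4.1 was lost without replicate 1 (adjusted p = 0.0537) or replicate 2 (adjusted p = 0.141) of every group. That of LHCB4.2 was lost without replicate 2 (adjusted p = 0.0966).

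The same 4 genes fell more with age at ZT17 and ZT21 on average than in the light, and this rested on ZT21. The age difference at ZT17 and ZT21 minus that at ZT1, ZT5, ZT9 and ZT13 was −1.05 ± 0.22 for LHCB6 (adjusted p = 0.00205), −0.96 ± 0.20 for LHCB5 (adjusted p = 0.00146), −0.90 ± 0.24 for LHCB4.2 (adjusted p = 0.0097) and −0.47 ± 0.14 for LHCB4.1 (adjusted p = 0.0275). These are 4 of 7 genes lower and none higher, while 9.3% of all genes tested were lower and 6.46% higher. LHCB4.3 with −0.52 ± 0.38, LHCB7 with −0.17 ± 0.13 and PSBS with 0.22 ± 0.18 did not pass (adjusted p = 0.379, 0.379 and 0.453). With ZT17 alone as night, a setting chosen after seeing the data, none of the 7 passed: LHCB6 had −0.25, LHCB5 had −0.35, LHCB4.2 had −0.19 and LHCB4.1 had −0.11 (adjusted p = 0.622, 0.389, 0.739 and 0.762). With ZT21 alone they had −1.85, −1.56, −1.62 and −0.83 and all 4 passed (adjusted p up to 0.00695). Of all genes, 1930 were lower and 1073 higher with ZT17 alone, and 778 and 672 with ZT21 alone. At ZT17, LHCB6 differed by −1.86 between ages, less than at ZT1 (−2.70) or ZT9 (−2.10), and the other 3 genes likewise fell by no more at ZT17 than at those times. Within batch numbers 1, 2 and 3 of the titles, the value was −0.35, −1.58 and −1.22 for LHCB6 and −0.61, −1.19 and −1.07 for LHCB5. For LHCB4.2 it was −0.10, −1.72 and −0.88, and for LHCB4.1 it was −0.25, −0.65 and −0.50. Without replicate 2 of every group, none of the 4 passed: LHCB6 had −0.78 (adjusted p = 0.108), LHCB5 had −0.84 (adjusted p = 0.055), LHCB4.2 had −0.49 (adjusted p = 0.351) and LHCB4.1 had −0.37 (adjusted p = 0.288). Without replicate 3, LHCB4.2 and LHCB4.1 did not pass (adjusted p = 0.084 and 0.172). LHCB4.1 also did not pass after median-of-ratios rescaling (adjusted p = 0.0613), with no filter on low values (adjusted p = 0.0566) or without any of 5 single libraries, which were replicates 2 and 3 of 21 DAS ZT17, replicate 2 of 21 DAS ZT21, replicate 2 of 35 DAS ZT17 and replicate 1 of 35 DAS ZT21.

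Ratios within a library do not depend on how libraries were scaled, apart from the added 1. Relative to LHCB5, LHCB6 fell with age by 0.39 on the log2 scale (p = 1e-05 in the same permutation test, its smallest possible value, and 3e-05 adjusted over 6 ratios). It was lower in the mean at 6 of 6 times. At ZT21 the FPKM ratio of LHCB6 to LHCB5 was 0.266 ± 0.0141 (SD, n = 3) at 21 DAS and 0.170 ± 0.0286 at 35 DAS, and at ZT13 it was 0.362 ± 0.0208 and 0.359 ± 0.0264. LHCB7 rose relative to LHCB5 by 1.91 (permutation p = 1e-05, adjusted 3e-05), with no overlap between ages at any of 6 times. LHCB4.1 differed from LHCB5 by 0.15 and PSBS by 0.34, and neither passed (permutation, adjusted p = 0.126 for both). This test averages over times, where opposite changes cancel. For LHCB4.1 to LHCB5, all older libraries were higher at 3 times and lower at 1. Its FPKM ratio at ZT5 was 0.537 ± 0.00764 at 21 DAS and 0.407 ± 0.0492 at 35 DAS, and at ZT21 it was 0.796 ± 0.0367 and 1.31 ± 0.0962. The ratio of PSBS to LHCB5 turned with the hour. At ZT5 it was 0.232 ± 0.00272 at 21 DAS and 0.121 ± 0.0119 at 35 DAS, while at ZT21 it was 0.533 ± 0.0663 and 1.60 ± 0.154, and at ZT1 it was 0.655 ± 0.0479 and 1.23 ± 0.231. In older leaves PSBS was thus above LHCB5 at ZT1, ZT17 and ZT21 in the mean, and in younger leaves at ZT17. At ZT5 the older libraries were all below the younger ones, and at ZT1 and ZT21 all above.

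**Figure D5:**
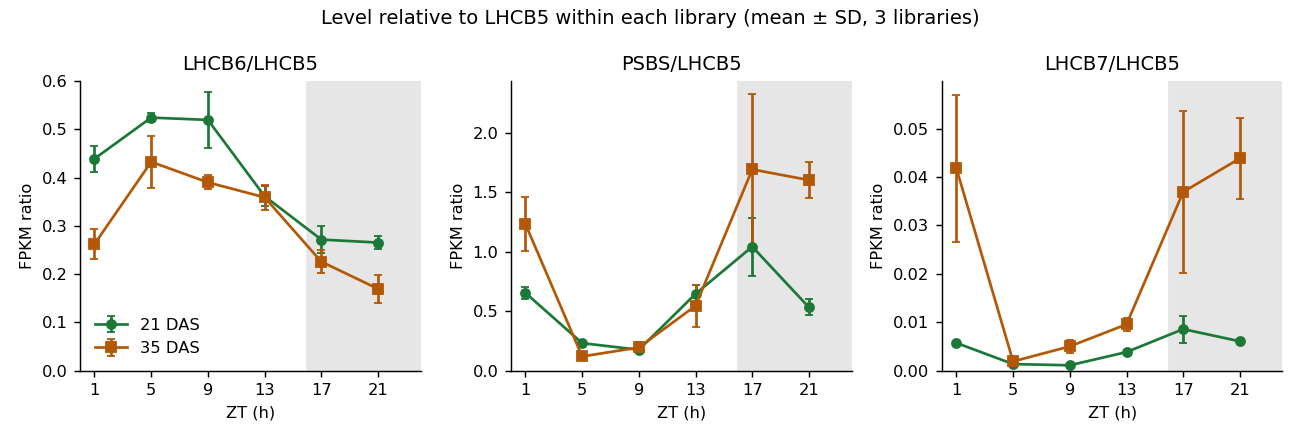
FPKM of LHCB6, PSBS and LHCB7 divided by that of LHCB5 in the same library, against time of day in h, mean ± SD of 3 libraries, green for 21 DAS and brown for 35 DAS, grey for the dark. LHCB6 is lower relative to LHCB5 at 35 DAS, PSBS runs from 0.121 at ZT5 to 1.69 at ZT17 at 35 DAS, and LHCB7 is higher at every time.

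Against the major antenna, the summed minor antenna genes LHCB4, LHCB5 and LHCB6 held 0.299 ± 0.00520 (SD, n = 3) of the FPKM of LHCB1, LHCB2 and LHCB3 at ZT5 of 21 DAS and 0.311 ± 0.0153 at ZT5 of 35 DAS. At ZT17 it was 0.794 ± 0.198 and 0.951 ± 0.367, and the ages overlapped at both times. At ZT1 it was 0.362 ± 0.00772 and 0.392 ± 0.0205, and at ZT9 it was 0.283 ± 0.00756 and 0.332 ± 0.00985. All 3 older libraries were higher at ZT1 and ZT9. The sum itself ran from 25809 ± 416 FPKM at ZT5 to 5317 ± 894 at ZT17 at 21 DAS, and from 16340 ± 1520 at ZT5 to 1394 ± 261 at ZT21 at 35 DAS. These are descriptions with no test.

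Transcript models are listed apart for 3 of the genes, and 1 model held nearly all of each. RefSeq gives 2 coding models of LHCB4.2, with 864 bases in 2 exons and 684 bases in 1 exon. Which of them belongs to which listed transcript was not checked. For LHCB4.2, the minor model held 0.939% ± 0.392 (SD, n = 18) at 21 DAS and 1.1% ± 0.670 at 35 DAS (permutation p = 0.142, adjusted 0.284 over 2 genes). It was highest at ZT1, with 1.56% ± 0.343 (SD, n = 3) at 21 DAS and 2.33% ± 0.198 at 35 DAS. For PSBS, the main model held 99.69% ± 0.221 and 99.68% ± 0.242 (permutation p = 0.824, adjusted 0.824). The minor model of LHCB4.3 was under 1 FPKM in the mean over all libraries and was not tested.

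Related genes moved in the same direction for the most part. Of all genes tested, 23.2% were called lower and 64.5% higher, against which the lists here and in the next paragraph stand. All 9 genes of the major antenna fell with age, with a median of −1.78, most in LHCB1.4 (−3.90) and LHCB2.3 (−3.88). All 6 genes of the photosystem I antenna fell, with a median of −1.07, most in LHCA6 (−3.02) and LHCA2 (−1.61). Of 17 photoprotection genes, 12 fell, 4 rose and STN7, the kinase of state transitions, did not pass, with a median of −0.79. LCNP, the plastid lipocalin, fell by 1.53 and VDE, the de-epoxidase that makes zeaxanthin, fell by 1.17. ZEP, the epoxidase that reverses VDE, rose by 0.63 and PGRL1B, of cyclic electron flow, rose by 0.56. After rescaling, 13 of the 17 were lower and 2 higher, ZEP at 0.21 and PGRL1B at 0.14, while 7198 of all 18729 genes were lower and 7957 higher. PGR5 and TAP38, which were called higher as deposited with 0.41 and 0.35, were then at −0.01 and −0.07 and not called.

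Of 5 genes for making chlorophyll b and inserting antenna proteins, 4 fell and none rose, with a median of −0.50. The largest falls were in LTD (−0.74) and CPSRP54 (−0.63), both of the route that delivers antenna proteins to the thylakoid, and the receptor CPFTSY did not pass. Of 8 antenna-like stress proteins, 5 fell and 2 rose. LIL3:1 fell by 1.38 and OHP2 fell by 0.79, while ELIP1, an early light-induced protein, rose by 1.68 and SEP2 rose by 0.46. After rescaling, all 5 import genes were lower, and of the antenna-like proteins 6 were lower and 1 higher, with SEP2 at 0.04 and not called. Of all genes, 7198 were then lower and 7957 higher. By night minus day, 3 of the 9 major antenna genes, 3 of 6 photosystem I antenna genes, 2 of 17 photoprotection genes, 1 of 5 import genes and 3 of 8 antenna-like genes were lower, against 9.3% of all genes. After rescaling, 1 of the 8 antenna-like genes was lower and the other counts were as before. Called higher were ELIP1 with 2.27, LHCB2.3 of the major antenna with 1.3 and ZEP with 0.63.

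The course over the 12 group means on the log2(FPKM + 1) scale gave the genes most like each member, as a description over means that share the daily and age pattern. Among 13460 genes averaging at least 5 FPKM, the highest Pearson r with LHCB4.1 was that of AT1G21500 (0.989), then LHCA2 (0.987) and PSAF (0.986). For LHCB4.2 it was PSAD-2 (0.987), PSBW (0.955) and TRXF2 (0.954). For LHCB5 it was PSAD-2 (0.985), PSAL (0.985) and PSAO (0.984), and for LHCB6 it was PSAO (0.985), PSAL (0.982) and LHCA3 (0.980). PSAF, PSAD-2, PSAL and PSAO are subunits of photosystem I, and PSBW is one of photosystem II. LHCB4.3 was most like NdhU (0.974), of the chloroplast NADH dehydrogenase-like complex, GOX2 (0.960), a glycolate oxidase, and GAPB (0.952), of the Calvin cycle. LHCB7 was most like AT4G21740 (0.965), BBX32 (0.956), a B-box protein, and AT2G41120 (0.947). PSBS was most like ATCSLA09 (0.973), FD1 (0.968), a ferredoxin, and HCD1 (0.963).

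Among the members, LHCB5 and LHCB6 had an r of 0.995 over the 12 means. Over the 6 means of an age, LHCB4.3 had an r with LHCB4.1 of −0.92 at 21 DAS and −0.74 at 35 DAS, so these paralogs ran against each other at both ages. LHCB7 and PSBS had 0.79 and 0.89, both being highest at ZT1.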

How the data were processed

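The authors deposited FPKM per transcript and library, per the file headers. STAR 2.3.0e, HTSeq and edgeR 3.12.1, and the build TAIR10, are named in the submitters' processing notes. How FPKM was derived is not given in the sources used here, so no count test was run. The table holds 41342 transcripts, and 36 unnamed columns hold no values. Transcript FPKM was summed per locus. The filter kept loci reaching 1 FPKM in 3 libraries or more, and values were analysed as log2(FPKM + 1), which understates changes of low genes such as LHCB7.

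limma 3.58.1 in R 4.3.3 fitted 12 group means over 36 libraries with eBayes and a trend and 1 common estimate of the spread. Tested were the age difference averaged over times, that at each time, night minus day, and 24-h cosine terms (F tests). Adjusted p-values are Benjamini-Hochberg over 18729 genes, called under 0.05, and the code was tested on simulated data. Ratios and transcript shares were tested by two-sided permutation of ages within times. Where nothing but the series text says that replicates came from separate plants, p-values measure the spread between these libraries.

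The members and lists were chosen with earlier results of these data known. Named are all members, the 2 list members with the greatest called difference in each direction (and others where a call changed), and the 3 genes most like each member. No 2 libraries were identical (highest correlation 0.990). Positions overlapped the same locus of RefSeq build TAIR10.1 for 32802 of 32803 loci. Alternatives were another added value (0.1), no filter, 2 rescalings, the highest transcript alone, array weights, no trend, a replicate block, and leaving out replicates and libraries. Leaving out the 4 libraries high in AT2G01021, and 1 dark time alone as night, were chosen after seeing the data.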

Additional observations from a re-analysis of the deposited data

Results flagged for a closer look

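The difference between ages was not the same at the 2 dark times together as by day for 4 genes, by the test of the difference itself (limma, adjusted p in the report). Age difference at ZT17 and ZT21 minus that at the 4 daytime hours was −0.47 for LHCB4.1, −0.90 for LHCB4.2, −0.96 for LHCB5 and −1.05 for LHCB6. It was below 0 in each of the 3 batch numbers for all 4 genes, but for LHCB4.2 from −0.10 to −1.72, and no call held without replicate 2 of every group. With ZT17 alone as night, none of the 4 passed (−0.11, −0.19, −0.35 and −0.25 in the same order), while with ZT21 alone all 4 did. The part of that replicate number was not tested.

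The daily rhythm differed between ages for the same 4 genes, by the F test of that difference. The amplitude of the difference was 0.43 for LHCB4.1, 0.83 for LHCB4.2, 0.74 for LHCB5 and 0.97 for LHCB6. Without replicate 2 of every group, LHCB5 and LHCB6 kept their call and LHCB4.1 and LHCB4.2 did not. Both results come from the same 36 libraries and are not independent of each other.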

How the results depend on the processing

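The 7 genes gave 3710 values over 11 comparisons and up to 50 settings. Of these, 3640 kept their side of the threshold, 62 lost their call, 5 gained one and 3 turned. A turn was counted only where the value was called as deposited or in the other setting. Uncalled values could therefore change sign among the 3640, as for LHCB4.2 at ZT13, which ran from −0.35 to 0.40. The 3 that turned were LHCB7 after median-of-ratios rescaling, at −0.060 for the age difference averaged over times, −0.058 at ZT9 and −0.44 at ZT21. That rescaling left 0 members called higher on average and at ZT1, ZT9, ZT13 and ZT17, where 1 was called as deposited. When replicates or single libraries were left out, members called higher ranged from 0 to 1 at ZT9, ZT13 and ZT17, members lower by night minus day from 0 to 5, and members whose rhythm differed from 2 to 4. The fifth was LHCB4.3, called without replicate 2 of 35 DAS ZT13 (−0.74, adjusted p = 0.0469). No call of a ratio or transcript share changed, and the ratio of LHCB6 to LHCB5 ranged from −0.42 to −0.36. Same-numbered libraries of the 2 ages deviated together little more than others (mean correlation 0.0233 against −0.0116, best with their own number in 8 of 18 cases). Whether the numbers pair the libraries was not tested. With a replicate block, 6 members were lower and 1 higher on average, 4 were lower by night minus day and 4 differed in rhythm, as without it. Of all genes, 7957 were higher and 7198 lower after median-of-ratios rescaling, against 12084 and 4349. At the single times, 4490 to 5497 were then higher, and 4992 to 5764 lower at all times but ZT13. Array weights gave 1818 genes higher by night minus day and 7849 with a rhythm difference, against 1210 and 5073. With ZT17 alone as night, chosen after seeing the data, 0 members were lower by night minus day, with 1930 of all genes lower and 1073 higher. With ZT21 alone, 4 members were lower, with 778 of all genes lower and 672 higher. Leaving out a replicate number gave 726 to 824 lower and 390 to 504 higher by night minus day, 1922 to 2673 with a rhythm difference, and, without replicate 3, 4915 higher at ZT13. The cause of these changes was not tested, except that fewer libraries were fitted. Depth limits LHCB7 and LHCB4.3 most.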
